A study of Mus musculus with 41 samples.

Results

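Fibroblast growth factors (FGFs) and their receptors were followed in mouse melanomas after doxycycline was withdrawn to switch off the driving oncogene. The family was taken as all one-gene probe sets of 9 genes, the ligands Fgf1, Fgf2, Fgf5, Fgf7, Fgf10 and Fgf18 and the receptors Fgfr1, Fgfr2 and Fgfr3. These 9 genes had 18 of the 34958 probe sets that name 1 gene, and they were 9 of 18194 genes on the array. A gene was tested only where at least 3 arrays put its brightest probe set over their own 40th percentile, close to a log2 intensity of 5.67. Fgf5, Fgf7, Fgfr1, Fgfr2 and Fgfr3 passed, which is 5 of the 9 members, against 14319 of all genes.

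The samples were 41 macrodissected frozen tumours of the iBIP strain, a BRAF-driven mouse model of melanoma whose tumours arose before doxycycline was taken out of the water. Groups were the days off the drug. Day 0 had 4 tumours, and days 1, 2, 3, 6 and 9 had 7, 5, 6, 4 and 3. Days 16 and 29 had 1 tumour each and enter no comparison, and 10 tumours came from days 63 to 163. Those last 10 are called late tumours here. The labels do not give the other alleles of the strain, the animals' age, whether tumours came from different mice, or what state the late tumours were in, so the p-values measure only the spread between these samples. In whole tumours, fewer cells of a type and less RNA per cell cannot be told apart.

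FGFs are secreted ligands that bind receptor tyrosine kinases together with heparan sulphate, a sugar chain on cell-surface and matrix proteins. The paired receptors phosphorylate docking proteins that switch on the RAS to ERK and PI3K pathways, and ERK in turn induces feedback inhibitors such as Spry and Dusp6. In skin, Fgf7 and Fgf10 are made by mesenchymal cells and act on epithelial forms of Fgfr2, Fgf2 is a mitogen for melanocytes, and Fgf5 is known as the signal that ends hair growth.

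Some array properties differed between the groups. A gap between the 3′ and 5′ probe sets of Gapdh, which widens as RNA is degraded, was 0.45 ± 0.12 (SD, n = 4) at day 0 and 2.62 ± 1.38 (SD, n = 10) in late tumours on the log2 scale. It was over 2 in 8 late tumours and in day 9 replicate 3, and it was 0.60 and 0.27 in late replicates 5 and 8. Chosen cuts on the spike-in controls bioD (12) and dap (9.4), in log2, split the arrays into 3 spike-in sets. The readings on either side of the bioD cut were 11.94 and 12.01. One set held all tumours of days 2, 3 and 6 with 1 of day 1, another held 6 of day 1 with 8 late tumours, and the third held the rest. No tumour of days 1 to 6 shared a set with day 0, so in those comparisons day and set cannot be told apart. Sample titles numbered below 1000, from 1000 to below 2000 and from 3000 split the groups too, and all tumours of days 1 to 6 lay in the middle range. The melanocyte markers Sox10 and Mitf, transcription factors of the lineage, were present at day 0 (10.26 ± 0.34 and 7.73 ± 0.35 log2, SD, n = 4), whereas the pigment genes Tyrp1 and Mlana (5.42 ± 0.42 and 5.34 ± 0.23) had day 0 means below the filter level and Tyr did not pass it. The pigment genes Dct, Pmel and Slc45a2 had day 0 means above it (6.24 ± 0.64, 6.25 ± 0.15 and 6.53 ± 0.11). The skin had been trimmed off, yet the mean of 10 keratinocyte markers ran from 5.94 to 11.79 over the tumours.

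The 4 members that were higher in late tumours than at day 0 were Fgf5, Fgf7, Fgfr2 and Fgfr3. The 250 bases before their annotated starts are shown because these genes moved in the same direction, with the first of the annotated starts for Fgfr3, from RefSeq on GRCm38.p6, 5′ to 3′ on the strand of the gene. Capitals mark matches on either strand to an ETS core (CCGGAA) or a GC box (GGGCGG). The windows were also searched for an AP-1 site (TGANTCA) and a TATA box (TATAAA), and neither was found in them. No printed match overlaps another.
Fgf5: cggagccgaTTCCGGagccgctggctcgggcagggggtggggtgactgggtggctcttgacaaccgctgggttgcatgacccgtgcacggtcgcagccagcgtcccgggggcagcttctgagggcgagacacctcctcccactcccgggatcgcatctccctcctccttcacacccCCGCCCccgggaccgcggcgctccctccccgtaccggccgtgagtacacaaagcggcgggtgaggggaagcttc
Fgf7: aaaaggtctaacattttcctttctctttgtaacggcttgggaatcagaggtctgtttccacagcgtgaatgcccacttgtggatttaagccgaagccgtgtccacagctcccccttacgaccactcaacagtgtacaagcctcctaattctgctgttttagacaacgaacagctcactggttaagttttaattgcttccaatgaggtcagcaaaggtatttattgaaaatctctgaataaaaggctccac
Fgfr2: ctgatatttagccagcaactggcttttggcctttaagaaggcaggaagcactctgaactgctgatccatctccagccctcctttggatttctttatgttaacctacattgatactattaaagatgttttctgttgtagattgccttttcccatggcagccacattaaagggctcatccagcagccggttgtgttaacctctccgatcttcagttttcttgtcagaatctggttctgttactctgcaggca
Fgfr3: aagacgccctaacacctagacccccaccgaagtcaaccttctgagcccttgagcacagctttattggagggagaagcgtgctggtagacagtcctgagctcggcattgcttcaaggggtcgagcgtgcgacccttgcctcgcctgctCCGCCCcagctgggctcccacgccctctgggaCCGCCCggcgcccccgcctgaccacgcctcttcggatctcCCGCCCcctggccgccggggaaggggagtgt

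The Fgf5 window (chr5:98253934-98254183, plus strand) held 1 ETS core and 1 GC box. A TATAAA match began 34 bases after its annotated start, and a GC box match began 30 bases after that of Fgfr3. Both lay outside the printed windows, and the shares given below do not cover them. The GC content of the Fgf5 window was 70.8% with 24 CpG dinucleotides. That of the Fgfr3 window (chr5:33721474-33721723, plus strand) was 66.8% with 19 CpG and 3 GC boxes. The Fgf7 window (chr2:126034408-126034657, plus strand) and the Fgfr2 window (chr7:130266809-130267058, minus strand) held no match, with GC contents of 43.6% and 44.0%. No searched motif was found in all 4 windows. Of 32851 windows of this length, 12.0% held the ETS core, 32.7% the GC box, 6.75% the AP-1 site and 12.4% the TATA box, and the median GC content was 52.4%. These are letter matches and not measured sites. The table held promoter entries for 7 members that could be used here.

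Among the ligands, Fgf5 had the widest change. Its brighter probe set, 1438883_at, read 6.37, 5.0, 4.95 and 5.20 in the 4 day 0 tumours on the log2 scale, and only the first of these was above the filter level. The late tumours read 9.37, 9.98 and 10.20 at day 63, 8.87 and 9.90 at day 77, 8.60 at day 90, 10.33 and 8.82 at day 121, 7.66 at day 136 and 10.29 at day 163. All 10 late tumours lay above all 4 day 0 tumours, and 9 of 10 lay above the highest of the 29 tumours of days 0 to 9, at 7.76. In deposited intensity the late median was 812 and the day 0 median 19.6.

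The late mean was 9.40 ± 0.89 (SD, n = 10) and the day 0 mean 5.38 ± 0.67 (SD, n = 4), a log2 difference of 4.02 ± 0.52 (SE), 16.3-fold on the log2(value + 16) scale (limma adjusted p = 3.02e-07). Against the mean of days 6 and 9 the difference was 3.75 ± 0.43 (limma adjusted p = 3.74e-07), and against day 1 it was 3.66 ± 0.43 (limma adjusted p = 6.06e-08). Since the pseudocount lifts low readings, these folds understate a change from near background. The 8 late tumours with titles from 3000 exceeded the 2 such day 0 tumours by 4.43 (limma adjusted p = 0.000329), whereas 2 against 2 tumours with titles below 1000 differed by 3.30 (limma adjusted p = 0.155).

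Before the late tumours, Fgf5 was mostly near background. At day 2 the tumours read 5.02, 4.98, 5.09, 7.76 and 7.24, at day 6 they read 5.14, 6.13, 5.31 and 5.21, and at day 9 they read 5.32, 4.82 and 7.45. Day 1 ran from 4.95 through a median of 5.55 to 6.58, and day 3 from 5.03 through 5.81 to 6.92. Thus replicates 4 and 5 of day 2 and replicate 3 of day 9 stood above their groups, and 11 of the 29 tumours of days 0 to 9 passed the filter level. None of days 1, 2, 3, 6 and 9 differed from day 0 by the test, with differences from 0.07 to 0.64 and limma adjusted p from 0.473 to 0.962. The single tumours of days 16 and 29 read 6.59 and 8.55, so the day 29 tumour lay within the late range.

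The second Fgf5 probe set, 1426186_a_at, is dim and was also higher in late tumours. It read 5.24, 4.95, 4.86 and 4.86 at day 0 and ran from 5.06 through a median of 5.98 to 6.77 in late tumours, 6 of which passed the filter level. Of the 29 tumours of days 0 to 9, 1 passed it, so this probe set was tested only because of its late readings. The late tumours were higher by 0.93 ± 0.23 (SE; limma adjusted p = 0.0013), with 8 of 10 above all day 0 tumours. The difference was 0.10 with spike-in sets entered as blocks (limma adjusted p = 0.817). Within titles below 1000 it was -0.02 (limma adjusted p = 0.958). Schwann and nerve markers as a covariate gave 0.57 (limma adjusted p = 0.426). The early tumours that were high on the bright probe set were high on this one at day 2 (5.92 and 5.62) but not at day 9 (5.04).

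**Figure D1:**
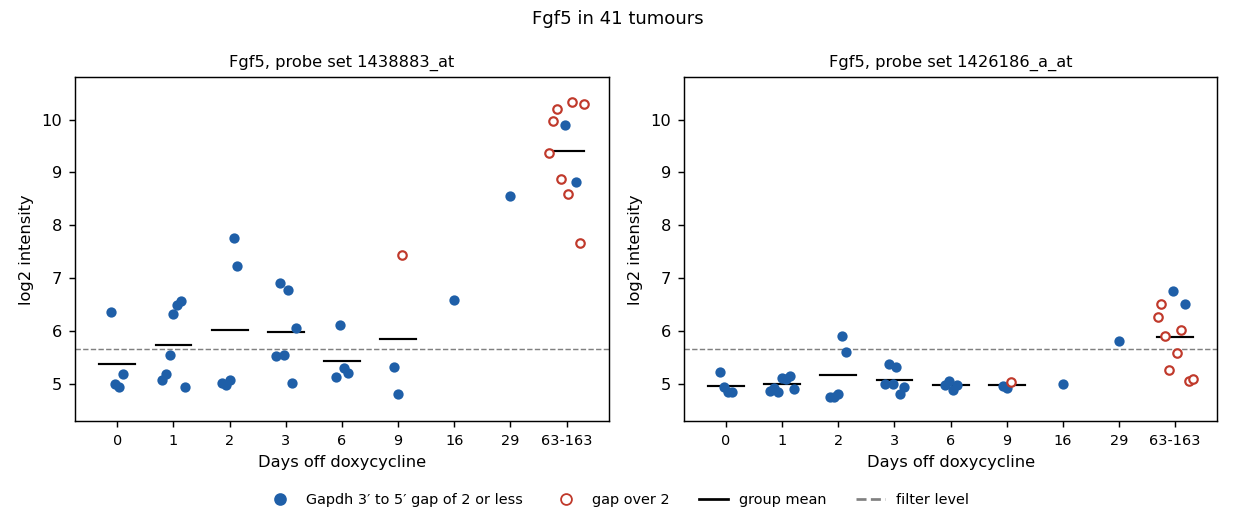
Log2 intensity of the 2 Fgf5 probe sets (y axis) in each of 41 tumours by days off doxycycline (x axis), with group means as bars and the filter level of 5.67 as a dashed line. Open red points are tumours with a Gapdh gap over 2. On 1438883_at all 10 late tumours lie above the 4 of day 0, including the 2 late tumours with a small gap.

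The Fgf5 difference was nearly as large when the Gapdh gap entered the fit. With the gap as a covariate the late tumours exceeded day 0 by 3.44 (limma adjusted p = 0.000359), and without all tumours of gap over 2 the difference was 3.98 (limma adjusted p = 0.000165). The 2 late tumours with a small gap, replicates 5 and 8, read 9.90 and 8.82. Entering the spike-in sets as blocks gave a late difference from day 0 of 3.60 (limma adjusted p = 0.000882).

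Schwann cell and nerve markers were higher in late tumours, and some were already higher in the first days, when Fgf5 was not called. Of 7 tested markers, 4, 3, 5, 3 and 4 were higher than at day 0 on days 1, 2, 3, 6 and 9. On those days 13.8%, 15.1%, 21.3%, 12.2% and 4.56% of all tested genes were called in either direction. The mean of the markers was 8.03 ± 0.89 (SD, n = 4) at day 0, 9.64 ± 0.50 (SD, n = 7) at day 1 and 9.91 ± 0.67 (SD, n = 6) at day 3. In late tumours 6 of 7 were higher than at day 0, where 26.3% of all tested genes were called higher, among them Mal (5.27 ± 0.55, SE; limma adjusted p = 1.68e-08) and Kcna1 (5.40 ± 0.58, SE; limma adjusted p = 2.24e-08), a potassium channel of axons, and Ncam1 was the exception (0.16 ± 0.24, SE; limma adjusted p = 0.605). Their mean ran from 7.29 to 9.17 at day 0 and from 10.62 to 11.76 in late tumours, without overlap. With this mean as a covariate, a choice made after the data had been seen, Fgf5 differed between late tumours and day 0 by 1.93 (limma adjusted p = 0.187), between late tumours and day 1 by 2.61 (limma adjusted p = 0.000924), and between late tumours and days 6 and 9 by 2.72 (limma adjusted p = 0.00222). The day 2 tumours with high Fgf5, replicates 4 and 5, had marker means of 10.68 and 9.70, the highest of that day. Their keratinocyte marker means, 10.69 and 11.79, were also the highest of that day. Day 3 replicates 4 and 6 had marker means of 10.74 and 10.50, yet Fgf5 was at most 6.92 at day 3. Whether the cells that carry these markers make Fgf5 was not tested.

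Genes with the most similar pattern to Fgf5 over the 41 tumours were Dock3 (Pearson r = 0.93), Cfap299 (0.93) and Slc6a19 (0.91). These are descriptions, since the genes share the late rise, and within groups the same 3 correlations were 0.71, 0.73 and 0.70. Dock3 was higher in late tumours than at day 0 by 2.15, Cfap299 by 1.90 and Slc6a19 by 2.29 on the log2 scale.

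Fgf7, the mesenchymal ligand for epithelial Fgfr2, was above the filter level in all 41 tumours on both of its probe sets. Probe set 1438405_at read 9.29, 9.89, 8.80 and 8.42 at day 0 and ran from 9.47 through a median of 9.97 to 11.41 in late tumours. Of the late tumours, 6 of 10 lay above all day 0 tumours and 4 above all tumours of days 0 to 9, and the groups overlapped. The highest was late replicate 5.

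The late mean of Fgf7 exceeded day 0 by 1.04 ± 0.32 (SE), or 2.06-fold (limma adjusted p = 0.00859), and day 1 by 1.23 ± 0.27 (limma adjusted p = 0.000312). The difference from days 6 and 9 was 0.60 ± 0.27 and did not pass (limma adjusted p = 0.0901). Without day 0 replicate 4 the difference from day 0 was 0.82 (limma adjusted p = 0.0645). It was 0.61 with spike-in sets entered as blocks (limma adjusted p = 0.339). The difference was 1.44 with the Gapdh gap as a covariate (limma adjusted p = 0.01). Within titles from 3000 it was 1.64 (limma adjusted p = 0.0151) and within titles below 1000 it was 0.12 (limma adjusted p = 0.887).

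From day 1 to day 9 no difference in Fgf7 from day 0 passed on this probe set. Day 2 read 8.81, 9.00, 8.86, 10.11 and 9.78, day 6 read 9.29, 9.51, 9.12 and 10.07, and day 9 read 9.99, 8.89 and 9.87. Differences from day 0 ran from -0.19 at day 1 to 0.49 at day 9. The day 16 and day 29 tumours, at 9.37 and 9.18, lay within the day 0 range and below all late tumours.

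The other Fgf7 probe set, 1422243_at, gave a different order of groups. It read 8.70, 9.10, 8.13 and 8.18 at day 0, ran from 7.17 through 7.72 to 9.22 at day 1, and from 7.47 through 9.00 to 10.86 in late tumours. Its highest group mean was at day 6 (9.38 ± 0.43, SD, n = 4). Late tumours exceeded day 1 by 1.21 ± 0.34 (SE; limma adjusted p = 0.00342, where 50.8% of all probe sets were called), close to the 1.23 of the first probe set, but exceeded day 0 by only 0.59 ± 0.40 (limma adjusted p = 0.233).

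The genes most like Fgf7 were Dio2 (Pearson r = 0.79 over 41 tumours, 0.78 within groups), the enzyme that activates thyroid hormone, Tmf1 (0.78) and Golm2 (0.77). Fibroblast markers, which mark the cells that make Fgf7 in skin, had means from 10.91 to 11.67 at day 0 and from 10.91 to 12.31 in late tumours. With that mean as a covariate Fgf7 differed by 0.96 (limma adjusted p = 0.029), and with the Schwann and nerve mean it differed by 0.05 (limma adjusted p = 0.969).

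The other 4 ligands gave no usable level. Fgf1, a ligand for all FGF receptors, stayed below the filter level on its 3 probe sets in all 41 tumours, with a highest reading of 5.53. Fgf2 (4.60 to 5.31) and Fgf10 (4.71 to 5.14) were also below it in every tumour. Fgf18 passed it in 1 tumour, day 0 replicate 1, at 6.37, while the other day 0 tumours read 5.13, 4.99 and 5.32. Readings so close to the floor do not show that these ligands were absent.

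Fgfr1, the receptor of mesenchymal and many tumour cells, was the one member called lower soon after withdrawal, on its brightest probe set only. Probe set 1424050_s_at read 11.38, 10.52, 10.14 and 10.34 at day 0 and 9.38, 9.60, 9.66, 9.83 and 9.78 at day 2. All 5 day 2 tumours lay below all 4 day 0 tumours. The 2 groups were in different spike-in sets, so day and set cannot be told apart here. Fgfr1 fell by 0.94 ± 0.28 (SE; ratio of 1.92) at day 2 (limma adjusted p = 0.0211), the only call for a member between days 1 and 9. Against day 0, limma called 1 of the 5 tested members at day 2, where 15.1% of all tested genes were called and 8.35% called lower. It called 0 members on days 1, 3, 6 and 9, where 13.8%, 21.3%, 12.2% and 4.56% of all tested genes were called. At an unadjusted p under 0.05 the members were Fgfr1 at day 1, Fgfr1 and Fgfr3 at day 2, Fgfr1 at day 3 and Fgfr1 and Fgfr3 at day 6, with none at day 9.

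Fgfr1 ran from 9.51 through 9.92 to 10.05 at day 3 and read 9.66, 10.14, 9.44 and 9.72 at day 6. The differences from day 0 were -0.72 ± 0.27 (SE; limma adjusted p = 0.0529) and -0.85 ± 0.30 (limma adjusted p = 0.0532), and in the fit of every probe set, where 24.5% and 17.1% of probe sets were called, the same values had limma adjusted p of 0.0477 and 0.0426. Those calls were lost on leaving out any of 8 of the 10 tumours compared at day 3 (differences from -0.87 to -0.46 over all 10) and any of 6 of the 8 at day 6 (from -1.01 to -0.59 over all 8), and in 8 and 7 of 15 other alternatives. Day 1 ran from 9.13 through 9.76 to 10.72 (difference -0.65 ± 0.26, limma adjusted p = 0.0903). The day 2 call rests on day 0 replicate 1: without it the difference was -0.68 (limma adjusted p = 0.131). It was also lost with spike-in sets entered as blocks (-0.75, limma adjusted p = 0.584). The call was lost too over the mean of the probe sets (-0.53, limma adjusted p = 0.126).

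From day 9 on, no difference in Fgfr1 from day 0 passed. It read 10.69, 10.28 and 9.69 at day 9, 10.60 at day 16 and 10.94 at day 29, and ran from 9.39 through 9.99 to 10.88 in late tumours. The late difference from day 0 was -0.53 ± 0.25 (SE; limma adjusted p = 0.0778), and the late difference from day 1 was 0.13 ± 0.21 (limma adjusted p = 0.628) with a 95% interval from -0.29 to 0.54. Of the late tumours, 6 of 10 lay below all day 0 tumours, and the late difference from days 6 and 9 was 0.09 ± 0.21 (limma adjusted p = 0.784). The genes most like Fgfr1 were Pnpla6, Atn1 and Pcnx (Pearson r = 0.82 each).

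The other probe sets of Fgfr1 were not called at days 2, 3 and 6. Their differences from day 0 were -0.26, -0.04 and 0.24 on 1425911_a_at and -0.38, -0.23 and -0.26 on 1436551_at. The 3 probe sets also disagreed in late tumours. Probe set 1425911_a_at read 9.75, 9.18, 8.80 and 8.63 at day 0 and ran from 5.58 through 6.66 to 8.59 in late tumours, all 10 of them below day 0. It was lower by 2.18 ± 0.45 (SE; limma adjusted p = 0.000167), whereas 1436551_at differed by -0.14 ± 0.15 (limma adjusted p = 0.452).

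The low readings of 1425911_a_at went with the Gapdh gap. Late replicates 5 and 8, with small gaps, read 8.45 and 8.59, and day 9 replicate 3, with a gap of 2.34, read 5.96 against 8.58 and 8.77 in the other day 9 tumours. With the gap as a covariate the late difference from day 0 was -0.34 (limma adjusted p = 0.433) and that from day 1 turned to 0.33 (limma adjusted p = 0.401). Without tumours of gap over 2 it was -0.57 from day 0 (limma adjusted p = 0.28).

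**Figure D2:**
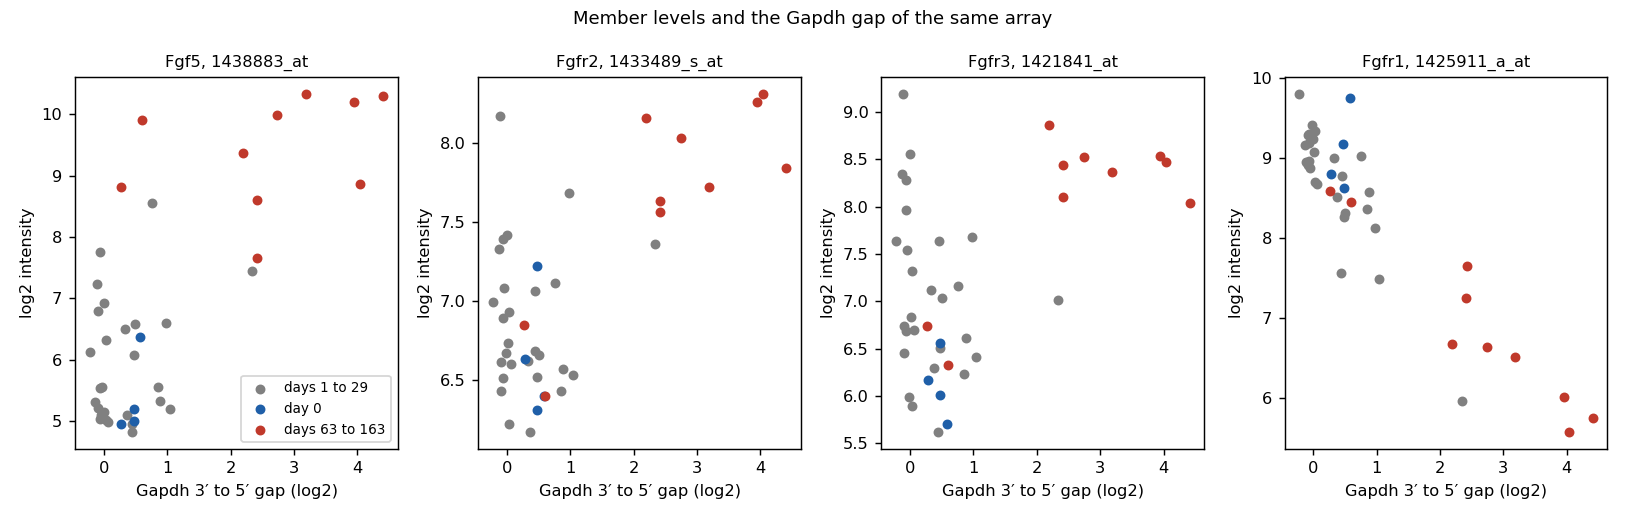
Log2 intensity of 4 member probe sets (y axis) against the Gapdh 3′ to 5′ gap of the same array (x axis, log2), 1 point per tumour, coloured by day 0, days 1 to 29 and days 63 to 163. The 2 late tumours at gaps of 0.60 and 0.27 lie with the other late tumours for Fgf5 (9.90 and 8.82) but with the earlier tumours for Fgfr2 (6.40 and 6.85), Fgfr3 (6.33 and 6.74) and the Fgfr1 probe set (8.45 and 8.59).

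Fgfr2, the receptor whose epithelial form binds Fgf7 and Fgf10, read 6.40, 6.31, 6.63 and 7.22 at day 0 on probe set 1433489_s_at. Late tumours read 8.16, 8.03 and 8.26 at day 63, 8.31 and 6.40 at day 77, 7.63 at day 90, 7.72 and 6.85 at day 121, 7.56 at day 136 and 7.84 at day 163. So 8 of 10 late tumours lay above all day 0 tumours, and the exceptions, replicates 5 and 8, were the late tumours with a small Gapdh gap.

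The late difference of Fgfr2 was 1.04 ± 0.29 (SE), or 2.05-fold, from day 0 (limma adjusted p = 0.00373), 1.10 ± 0.24 from day 1 (limma adjusted p = 0.000301) and 0.72 ± 0.24 from days 6 and 9 (limma adjusted p = 0.0221). With the gap as a covariate these were 0.36 (limma adjusted p = 0.446), 0.44 (limma adjusted p = 0.28) and 0.07 (limma adjusted p = 0.919). Without tumours of gap over 2, which leaves 2 late tumours, they were -0.01, 0.05 and -0.24 and none passed. The call from days 6 and 9 was also lost without day 9 replicate 1 (0.61, limma adjusted p = 0.0829). Entering the spike-in sets as blocks lost the call from day 0 (1.06, limma adjusted p = 0.0602). The call from days 6 and 9 was lost there too (0.94, limma adjusted p = 0.0955). The set that holds day 0, fitted alone, gave a late difference from day 0 of 1.06 (limma adjusted p = 0.0427). Within titles from 3000 it was 0.75 (limma adjusted p = 0.268) and below 1000 it was 1.35 (limma adjusted p = 0.0867).

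Earlier tumours held single high readings of Fgfr2. Day 2 read 6.22, 6.60, 7.08, 6.89 and 8.17, day 6 read 6.73, 6.99, 7.33 and 6.61, day 9 read 6.57, 7.06 and 7.36, and day 3 ran from 6.43 through 6.59 to 7.42. The tumours of days 16 and 29 read 7.68 and 7.11. Differences from day 0 on days 1 to 9 ran from -0.06 to 0.36, and none passed. Of the dimmer probe sets, 1420847_a_at was highest in the same day 2 tumour (7.17) and differed between late and day 0 tumours by 0.28 ± 0.21 (limma adjusted p = 0.262), and 1443211_at stayed below the filter level throughout.

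Fgfr3, a receptor of cartilage and of epidermal cells, read 5.70, 6.01, 6.17 and 6.56 at day 0 on probe set 1421841_at. Late tumours read 8.86, 8.52 and 8.53 at day 63, 8.47 and 6.33 at day 77, 8.10 at day 90, 8.37 and 6.74 at day 121, 8.44 at day 136 and 8.04 at day 163. All but replicate 5 were above day 0, and the lowest 2 were again replicates 5 and 8.

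The late difference of Fgfr3 was 1.93 ± 0.48 (SE), or 3.82-fold, from day 0 (limma adjusted p = 0.00147) and 1.47 ± 0.40 from day 1 (limma adjusted p = 0.00291). From days 6 and 9 it was 0.80 ± 0.41 and did not pass (limma adjusted p = 0.128). With the gap as a covariate the first was 1.30 (limma adjusted p = 0.116) and the second 0.85 (limma adjusted p = 0.261). Without tumours of gap over 2 they were 0.43 (limma adjusted p = 0.701) and -0.04 (limma adjusted p = 0.975). Spike-in sets entered as blocks gave a difference from day 0 of 2.13 (limma adjusted p = 0.024). The difference was 1.63 within titles from 3000 (limma adjusted p = 0.076) and 2.39 below 1000 (limma adjusted p = 0.0593).

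Fgfr3 was already variable in the first days. Day 2 read 5.89, 6.70, 7.54, 7.96 and 9.19, day 6 read 6.83, 7.64, 8.34 and 6.74, day 9 read 6.61, 7.64 and 7.01, and day 3 ran from 5.99 through 6.60 to 8.56. All tumours of days 6 and 9 lay above day 0, yet the differences of 1.28 ± 0.58 and 0.98 ± 0.62 (SE) did not pass (limma adjusted p = 0.144 and 0.377). No late tumour exceeded the highest day 2 tumour.

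The second Fgfr3 probe set, 1425796_a_at, ranked the day 2 tumours as the first did but differed from it on other days. It read 5.67, 5.76, 5.78, 6.06 and 6.91 at day 2, in the same order as the first. All 4 day 6 tumours lay above day 0 on both, but the difference from day 0 was -0.04 on this probe set at days 1 and 9, against 0.47 and 0.98 on the first. In late tumours it ran from 5.24 through 5.46 to 5.67, with 1 of 10 above the filter level, against 5.43, 5.59, 5.80 and 5.83 at day 0 (difference -0.18 ± 0.16, SE; limma adjusted p = 0.362). It was lower in late tumours than at days 6 and 9 by 0.39 ± 0.14 in size (limma adjusted p = 0.0267, where 33.3% of all probe sets were called), and with the gap as a covariate that difference was -0.19 (limma adjusted p = 0.602).

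**Figure D3:**
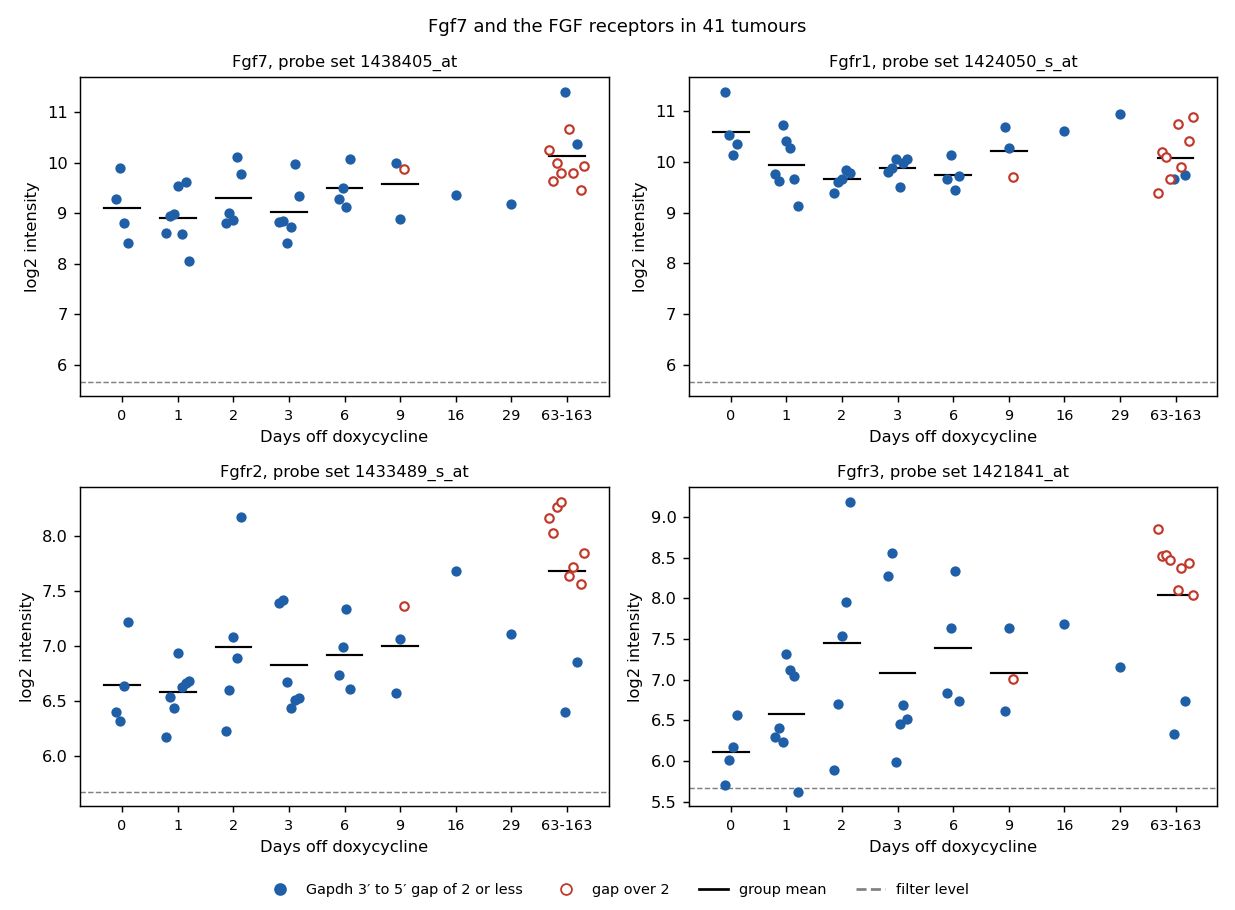
Log2 intensity (y axis) of Fgf7, Fgfr1, Fgfr2 and Fgfr3 on the brightest probe set of each in 41 tumours by days off doxycycline (x axis), with group means as bars and the filter level as a dashed line. Open red points have a Gapdh gap over 2. For Fgfr2 and Fgfr3 the 2 filled late points, replicates 5 and 8, lie well below the 8 open ones, while for Fgf7 they are at 11.41 and 10.38.

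Fgfr2 and Fgfr3 varied together over the 41 tumours (Pearson r = 0.88), and Fgf5 was less like either (0.65 with Fgfr2 and 0.56 with Fgfr3). The genes most like Fgfr2 were Dsg2 (r = 0.94, 0.92 within groups), a desmosomal cadherin, Afdn (0.91), which links cell junctions to actin, and Zfp185 (0.90). Those most like Fgfr3 were Tmem30b (0.93), Grhl1 (0.93) and Esrp1 (0.92), of which Grhl1 is a transcription factor of epidermis and Esrp1 a splicing regulator of epithelial cells. These correlations stayed between 0.84 and 0.92 within groups.

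Keratinocyte markers varied in the same tumours. The mean of 10 keratinocyte markers was 11.79 in day 2 replicate 5, the tumour with the highest Fgfr3. It was 5.94 in late replicate 5, the late tumour with the lowest. The order did not hold in every tumour. Late replicate 10 had a mean of 7.65, below that of late replicate 8, yet its Fgfr3 was higher than in replicate 8. Of the 10 markers, 2, Krt15 and Trp63, were higher in late tumours than at day 0, against 26.3% of all tested genes. The mean of the markers ran from 6.62 to 9.08 at day 0 and from 5.94 to 11.63 in late tumours. With this mean as a covariate, a choice made after the data had been seen, the late difference from day 0 was 0.62 for Fgfr2 (limma adjusted p = 0.0125) and 1.16 for Fgfr3 (limma adjusted p = 0.0011). With the Schwann and nerve mean it was 0.86 for Fgfr2 (limma adjusted p = 0.345) and 0.89 for Fgfr3 (limma adjusted p = 0.576). Which cells carried the receptors was not tested.

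The groups can also be put in order by their means for each member. Fgf5 ran from late tumours at 9.40 through day 29 at 8.55 and day 16 at 6.59 to days 0 to 9 between 5.38 and 6.02, where the values of neighbouring groups overlapped. Fgf7 was highest in late tumours (10.14 ± 0.57, SD, n = 10) and lowest at day 1 (8.91 ± 0.55, SD, n = 7), and Fgfr1 was highest in the single day 29 tumour and lowest at day 2 (9.65 ± 0.18, SD, n = 5). Fgfr2 was highest in late tumours (7.68 ± 0.62, SD, n = 10) and Fgfr3 too (8.04 ± 0.83, SD, n = 10). For these 4 members the values of neighbouring groups with more than 1 tumour overlapped throughout.

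Read over all members, 4 of 5 tested members were called in late tumours against day 0, all higher, where 46.4% of all tested genes were called and 26.3% called higher. Against day 1 the same 4 of 5 were higher, where 51.7% were called and 28.9% called higher, and against days 6 and 9 the count was 2 of 5, Fgf5 and Fgfr2, where 31.6% were called and 17.8% called higher. These comparisons share the late tumours. The median difference of the 5 members was 1.04 in late tumours against day 0 and that of all tested genes 0.045. With the Gapdh gap as a covariate, Fgf5 and Fgf7 were called against day 0.

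**Figure D4:**
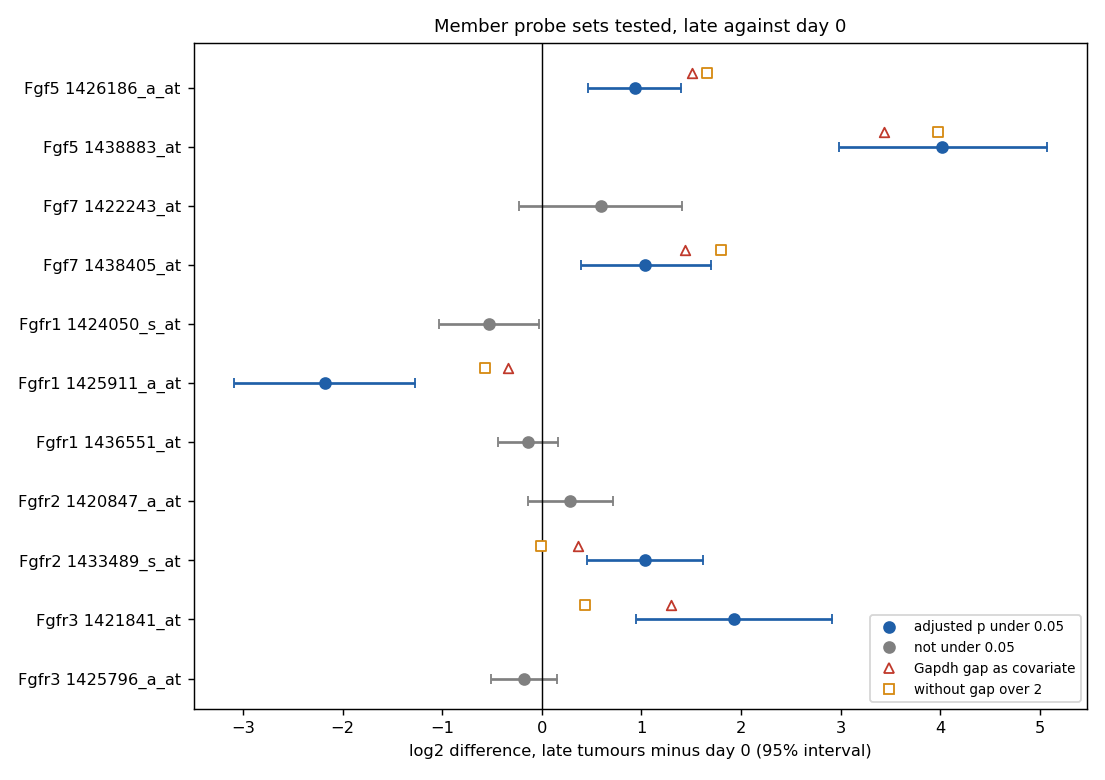
Log2 difference between late and day 0 tumours (x axis) for the 11 member probe sets tested, with 95% intervals from limma. Blue points have an adjusted p under 0.05. Triangles give the value with the Gapdh gap as a covariate and squares that without tumours of gap over 2, for the called probe sets. Both markers stay right of 3 for Fgf5 1438883_at (3.44 and 3.98) and move close to 0 for Fgfr1 1425911_a_at (-0.34 and -0.57).

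Over probe sets, 6 of 11 tested member probe sets were called in late tumours against day 0, 5 higher and 1 lower, where 48.6% of all probe sets were called. Each of Fgf7, Fgfr1, Fgfr2 and Fgfr3 had probe sets on both sides of the threshold. Fgf5 was the one member called on all of its probe sets.

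The rest of the pathway was read from lists of textbook members. Of 12 other secreted FGFs, 4 passed the filter and 1, Fgf4, was called against day 0 in late tumours, lower by 0.17 in size. That call was lost with spike-in sets entered as blocks (-0.10, limma adjusted p = 0.425) and without day 0 replicate 2 or 4. Of the intracellular FGFs, which do not bind the receptors in the usual way, Fgf11 was higher by 1.01 ± 0.21 (SE; limma adjusted p = 0.000175) and Fgf13 was not called. With the Gapdh gap as a covariate Fgf11 differed by 0.54 (limma adjusted p = 0.0941).

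Fgfrl1, a receptor that lacks the kinase domain, was lower in late tumours by 1.19 ± 0.22 in size (SE; limma adjusted p = 3.99e-05) and already lower at days 1, 2 and 3, by 0.90 ± 0.23, 1.00 ± 0.24 and 1.12 ± 0.23 in size (limma adjusted p = 0.00809, 0.00594 and 0.00106). At days 6 and 9 its differences of -0.62 and -0.63 did not pass (limma adjusted p = 0.112 and 0.179). The tumours of days 1, 2 and 3 shared no spike-in set with day 0, so day and set cannot be told apart there. With the gap as a covariate its late difference was -1.34 (limma adjusted p = 0.000816). It was -0.75 with spike-in sets entered as blocks (limma adjusted p = 0.0604). The kinase receptor Fgfr4 was not called (0.04 ± 0.07; limma adjusted p = 0.676), and Fgfbp1, which releases FGFs from the matrix, differed by 1.82 ± 0.85 (limma adjusted p = 0.0767).

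Of 12 tested proteoglycans that carry heparan sulphate, 7 fell and 1 rose in late tumours against day 0, where 20.1% of all tested genes were called lower and 26.3% higher. Their median difference was -0.62, against 0.045 for all tested genes. Sdc3 and Sdc1, membrane syndecans, fell by 1.72 ± 0.23 (SE; limma adjusted p = 4.33e-07) and 1.18 ± 0.22 (limma adjusted p = 6.57e-05), and Col18a1, a basement membrane collagen, fell by 0.87 ± 0.25 (limma adjusted p = 0.00496), which with the gap as a covariate was -0.67 (limma adjusted p = 0.125). Tgfbr3, the betaglycan that also binds FGF2, rose by 1.17 ± 0.29 (limma adjusted p = 0.00117), and with the gap as a covariate differed by 0.85 (limma adjusted p = 0.0844).

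Of 16 tested enzymes that build or cut heparan sulphate, 7 fell and 2 rose, with a median difference of -0.16, where 46.4% of all tested genes were called and 20.1% called lower. Ext2 and Extl3, which lengthen or start the chain, fell by 0.92 ± 0.14 (SE; limma adjusted p = 2.47e-06) and 0.78 ± 0.15 (limma adjusted p = 6.87e-05). Hpse, the heparanase that cuts the chain, rose by 1.59 ± 0.28 (limma adjusted p = 2.37e-05), and it was higher than at day 0 from day 1 (1.55 ± 0.29, limma adjusted p = 0.000725) to day 9 (1.59 ± 0.36, limma adjusted p = 0.00994). Extl1 rose by 0.53 ± 0.11 (limma adjusted p = 0.000267), and with the gap as a covariate differed by 0.32 (limma adjusted p = 0.0807). Entering the spike-in sets as blocks gave a late difference of -0.41 for Extl3 (limma adjusted p = 0.113). That for Hpse was 0.98 (limma adjusted p = 0.0516).

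Among 15 tested adaptors below the receptors, 5 rose and 2 fell, a total share near the 46.4% of all tested genes. Their median difference was 0.07. Gab1 and Sos2, a docking protein and an exchange factor for RAS, rose by 1.09 ± 0.23 (SE; limma adjusted p = 0.000252) and 1.07 ± 0.22 (limma adjusted p = 0.000175), and Crkl fell by 0.75 ± 0.13 (limma adjusted p = 2.66e-05). With the Schwann and nerve mean as a covariate, Gab1 and Sos2 turned to -0.50 and -0.29 (limma adjusted p = 0.278 and 0.586). Against day 1, 8 of the 15 rose and 2 fell, where 51.7% of all tested genes were called and 28.9% called higher. Among them were Crk (0.43 ± 0.07, SE; limma adjusted p = 3.41e-06) and Grb2 (-0.46 ± 0.12; limma adjusted p = 0.00167), adaptors that carry the signal from the docking proteins.

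Of 13 tested feedback and target genes of FGF and ERK signalling, 8 fell and 1, Il17rd, rose in late tumours against day 0, where 20.1% of all tested genes were called lower. Against day 0, 7, 7, 8, 7 and 6 of the 13 were already lower at days 1, 2, 3, 6 and 9 and 0 were higher. On those days 13.8%, 15.1%, 21.3%, 12.2% and 4.56% of all tested genes were called in either direction. Late tumours against day 1 had 7 lower and 3 higher, where 51.7% of all tested genes were called and 28.9% called higher. In late tumours against day 0, Spred3 was lower by 2.08 ± 0.19 and Etv4 by 1.46 ± 0.16 in size (SE, limma adjusted p = 2.04e-09 and 2.86e-08). Those calls were kept in 22 and 21 of 23 alternatives. Spry4 was lower by 1.21 ± 0.18 and Dusp6 by 1.43 ± 0.21 in size (SE, limma adjusted p = 3.07e-06 and 1.76e-06), each kept in 21 of 23. The Spry4 and Dusp6 calls were lost with the Schwann and nerve mean as a covariate (-0.22 and -0.61, limma adjusted p = 0.664 and 0.295) and within titles below 1000 (-1.24 and -1.11, limma adjusted p = 0.0979 and 0.176). BRAF feeds the same ERK output as the receptors, and the cause of these falls was not tested. Against days 6 and 9, also after doxycycline withdrawal, 1 of the 13, Spry2, was higher (0.55 ± 0.15, SE, limma adjusted p = 0.00594) and 0 were lower. In that comparison 31.6% of all tested genes were called and 17.8% called higher.

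**Figure D5:**
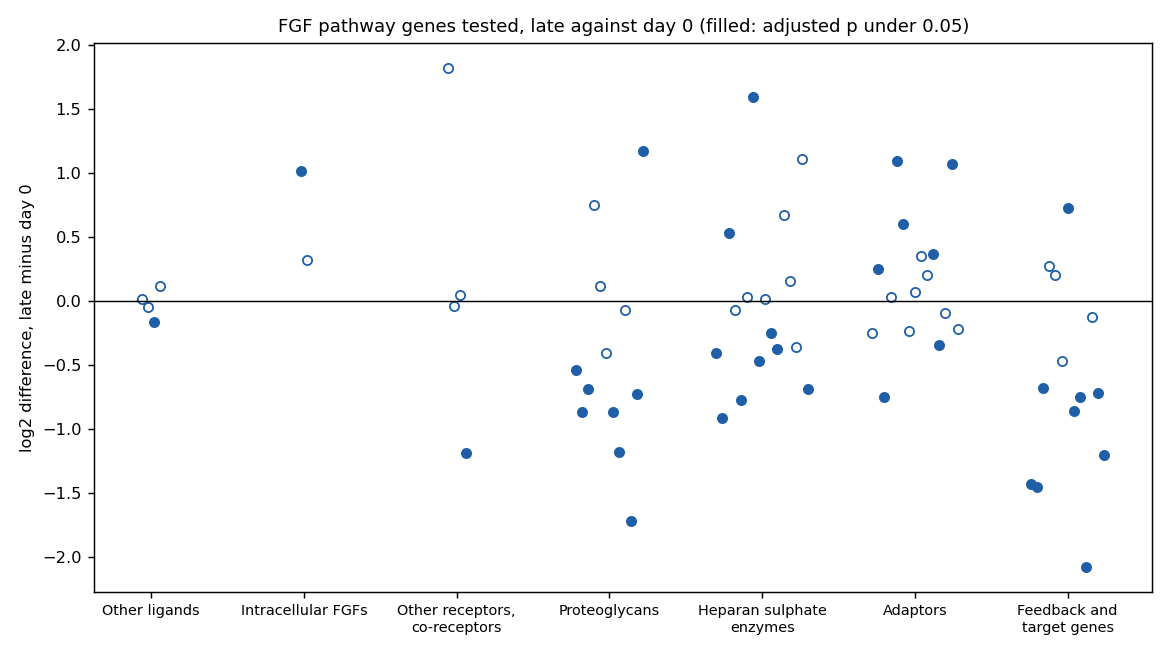
Log2 difference between late and day 0 tumours (y axis) for each tested gene of 7 FGF pathway lists (x axis), 1 point per gene, filled where the limma adjusted p was under 0.05. Proteoglycans (7 lower, 1 higher) and feedback and target genes (8 lower, 1 higher) lie mostly below 0, and adaptors (5 higher, 2 lower) lie on both sides.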

How the data were processed

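RNA of 41 tumours was labelled as biotin cRNA and hybridised to Affymetrix arrays, per the labels' protocols. The authors deposited 1 intensity per probe set and array on a linear scale. RMA and MAS5 both appear in the submitters' processing notes, with no word on which made the values. Detection calls and a genome build are not given in the sources used here. Arrays have no read depth, and the number of arrays limits the precision.

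From the deposited intensity, log2(value + 16) was computed and quantile normalised. Of 45101 probe sets, 34958 named 1 gene, 932 several and 9211 none, and the brightest of each gene represented it. A group-means model over all 41 tumours was fitted with limma 3.58.1 in R 4.3.3, with 32 residual and 2.58 prior degrees of freedom. Benjamini-Hochberg adjustment ran over all 14319 genes, or over 25803 probe sets, and a call is an adjusted p under 0.05. The script was tested on simulated data. Figures used matplotlib 3.10.9 in Python 3.11.15.

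The members, gene lists and marker lists were chosen with earlier results of these data known. Named pathway genes were taken from up to 4 called genes with the lowest adjusted p in each list, and named similar genes were the 3 with the highest correlation to a member. The genes Fgf13, Fgfr4, Fgfbp1, Il17rd, Spry2 and the marker genes were named after their values were seen. Alternatives were other pseudocounts, filters, normalizations, probe set rules, blocks and covariates, and each tumour left out in turn.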

Additional observations from a re-analysis of the deposited data

Results flagged for a closer look

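In 54 groups of 4 to 10 tumours, 4 had a highest tumour far from the others, and chance alone gives about 1 in 20. All 4 readings were below the filter level of 5.67. Fgf18 read 5.09 in day 3 replicate 3 against 4.89 to 4.92 in the others, 5.05 in day 6 replicate 4 against 4.81 to 4.83, and 5.27 in late replicate 2 against 4.85 to 5.04. Fgf2 read 5.04 in day 0 replicate 3 against 4.77 to 4.80.

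The single tumours of days 16 and 29 entered no comparison. Fgf5 at day 29 (8.55) and Fgfr3 at day 16 (7.68) each lay at least 1 log2 unit above the highest day 0 tumour, and with 1 tumour each this was not tested.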

How the results depend on the processing

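On 1438883_at the higher Fgf5 in late tumours kept its direction under all alternatives run and its call against day 1 and against days 6 and 9. Its call against day 0 was lost in titles below 1000 alone (3.30) and with Schwann and nerve markers as a covariate (1.93). Without a filter the counts of called members were 2 at days 1, 2 and 3 and 1 at day 6. They were 1 at days 3 and 6 with a filter at the 60th percentile, and 1 at days 3 and 6 and 4 for late against days 6 and 9 with every probe set tested. With array weights they were 1, 2, 1 and 1 at days 1, 2, 3 and 6, with only the compared groups 1 at day 3, and with the mean of probe sets 0 at day 2. When spike-in sets entered as blocks they were 0 at day 2, 2 for late against day 0 and 1 for late against days 6 and 9, with 19 pathway genes and 3 probe sets called. With the Gapdh gap as a covariate they were 2 for late against day 0, 1 against days 6 and 9 and 2 against day 1, and Fgfr1 1425911_a_at turned to 0.11 and 0.33 against days 6 and 9 and day 1. Without tumours of gap over 2 they were 1 at days 1, 3 and 6 and 2 for late against day 1. There Fgfr2 1433489_s_at turned to -0.01 and -0.24, Fgfr3 1421841_at to -0.04 and Fgfr1 1425911_a_at to 0.15. With days 90 to 163 as late the count against days 6 and 9 was 1. Titles of 3000 and above alone gave 2 members, 22 pathway genes and 3 probe sets, and titles below 1000 alone gave 0, 0 and 0, with Fgf5 1426186_a_at at -0.02. Spike-in set 3 alone gave 15 pathway genes. With Schwann and nerve markers 0 members were called against day 0, 1 against days 6 and 9 and 2 against day 1, with 2 pathway genes and 0 probe sets, and Sos2, Gab1 and Gab2 turned to -0.29, -0.50 and -0.22. The cause of these changes was not tested. Spike-in set 3 alone and the 3 marker covariates were chosen after seeing the data. Leaving out 1 tumour gave 0 to 1 members called at day 1, 0 to 2 at day 2, 0 to 1 at day 3, 0 to 1 at day 6 and 0 to 0 at day 9. It gave 3 to 5 for late against day 0, 4 to 4 against day 1 and 1 to 3 against days 6 and 9, with 30 to 38 pathway genes and 5 to 7 probe sets. The title range could not be fitted as a block for days 1 to 6 or for late against days 6 and 9. No paired analysis was possible because the labels give no replicate numbers. Signal near background limits Fgf1, Fgf2, Fgf10 and Fgf18.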
